A study of Mus musculus with 8 samples.

Results

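T cells that carried 2 productive T cell receptor alpha (TRA) chains and 1 beta (TRB) chain were examined in mouse bone marrow. A member was a barcode with exactly 2 TRA contigs and 1 TRB contig in the TCR library of its pool, joined to the gene expression library, with 200 or more genes and at most 15% of unique molecular identifiers (UMIs) from mitochondrial genes. The 4 pools held 4065 such cells among 55850 that passed the limits on cells, and they were compared with 29862 cells with exactly 1 TRA and 1 TRB. A unit of the TCR library is a contig, an assembled receptor transcript, with the count of its UMIs.

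T cells were sorted from the bone marrow of C57BL/6 mice as DAPI- mCherry- CD3+ cells after negative enrichment of T cells. The Runx1::Runx1t1 group was labelled with that genotype, and the methods give it as heterozygous for a conditional Runx1::Runx1t1 knock-in and carrying Mx1-Cre, a recombinase gene driven by an interferon-inducible promoter and so not limited to one blood lineage. The control group was labelled WT, and the methods give it as littermates with the same knock-in allele without Mx1-Cre. Both groups received 5 mg/kg Poly(I:C) every other day, 4 injections in all, and were sampled 4 weeks later. mCherry marked cells that expressed the fusion, so the sorted T cells lacked that marker in both groups. Each pool mixed 2 mice and each group had 2 pools, which were the replicates here, so no value can be assigned to 1 mouse. Values by pool are given in the order Runx1::Runx1t1 replicates 1 and 2, then control replicates 1 and 2. The gene expression libraries held 102883449, 100115383, 90958101 and 99869646 UMIs, and the TCR libraries 261890, 245770, 205797 and 225972 contig UMIs. Any pair of pools shared 256 to 306 barcodes, and 0 of these shared a CDR3 sequence.

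A T cell receptor pairs an alpha with a beta chain, and each chain is made in the thymus when the RAG recombinase joins gene segments. At Tcrb, a first productive joint signals back and rearrangement of the other allele is held off, so most T cells keep 1 beta chain. At Tcra, V to J joining goes on at both alleles, and it can repeat with V and J segments farther apart until positive selection ends it, so a mature cell can carry 2 productive alpha chains. The TRAV segments lie before the TRAJ segments, and TRAJ segments are numbered down toward the constant gene Trac, so that TRAJ58 lies nearest the TRAV segments and TRAJ2 nearest Trac.

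In the GRCm38 genome, Trac lies at chr14:54220521-54224206. The 43 TRAJ segments found in the contigs of these cells lie between TRAJ58, which starts at chromosome 14 position 54157280 and 63.2 kb before Trac, and TRAJ2, 2.65 kb before Trac. The 89 TRAV segments span 1449 kb before them, from position 52427928 to 53876752. Many TRAV segments have near-identical copies, marked D or N in their names, so a V call could fall on the wrong copy, and V usage is therefore given mainly by family.

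Cells with 2 TRA were T cells by their markers. Cd3e, a subunit of the receptor complex, had a UMI in 99.4% of them and Cd3d in 98.3%. The B cell marker Ebf1 was at 0 in all 4 pools, and of 5 B cell markers Cd79b was the most abundant, at 7.84 to 11.3 counts per 1000000 UMIs (CPM). The 6 myeloid markers summed to 17.9, 7.84, 50.5 and 130 CPM in cells with 2 TRA and to 31.5, 16.7, 392 and 102 CPM in cells with 1 TRA, with Lyz2 or Mpo the most abundant and Elane at 0 in cells with 2 TRA of both Runx1::Runx1t1 pools. The 6 erythroid markers summed to at most 10.7 CPM and the progenitor markers Cd34 and Kit to at most 15.4 CPM in cells with 2 TRA.

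About 12% of cells with 1 TRB carried 2 TRA chains in every pool. There were 1083, 936, 951 and 1095 cells with 2 TRA beside 8166, 7307, 6899 and 7490 cells with 1 TRA. The share of cells with 2 TRA was 11.7% (95% Wilson interval 11.1 to 12.4), 11.4% (10.7 to 12.1), 12.1% (11.4 to 12.9) and 12.8% (12.1 to 13.5), intervals that cover counting error only. The mean over pools was 12% ± 0.601 (SD, n = 4). Both Runx1::Runx1t1 pools lay below both control pools, with group means of 11.5% and 12.4%. The difference of -0.902 percentage points had p = 0.33 in a two-sided exact permutation test of 2 pools against 2, the smallest p that this design allows. With each clonotype, a distinct set of TRB and TRA CDR3 nucleotide sequences, counted once, the shares were 13%, 13.3%, 12.2% and 13.1%, and the group difference turned to 0.491 points (exact permutation p = 0.667). Runx1::Runx1t1 replicate 2 held the largest clonotype with 1 TRA, of 1118 cells, and without it the share by cells in that pool was 13.1%. Without cells carrying the TRB of that clonotype or of the largest clone with 2 TRA, from the same pool, a setting chosen after seeing the data, the shares were 11.7%, 11.7%, 12.1% and 12.8%, and the group difference was -0.742 points (exact permutation p = 0.33).

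**Figure D1:**
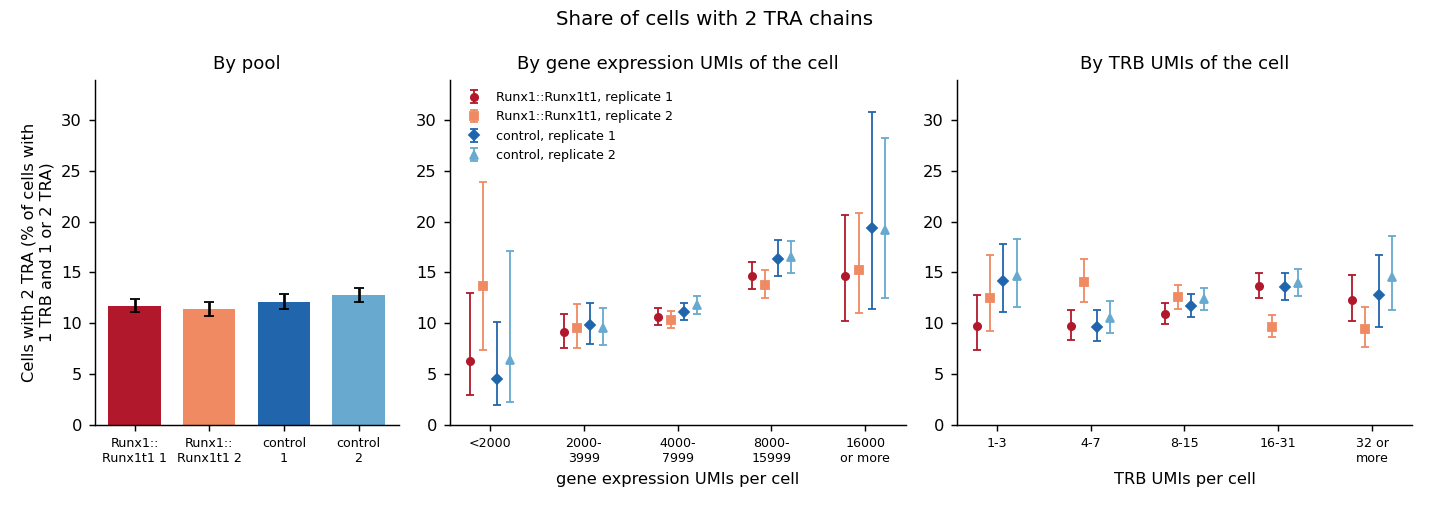
Share of cells with 2 TRA chains (percent of cells with 1 TRB and 1 or 2 TRA, y axis) by pool, by gene expression UMIs of the cell and by TRB UMIs of the cell; points and bars are pools and lines are 95% Wilson intervals. All 4 pools lie between 11.4% and 12.8%. The share by cells is higher with more gene expression UMIs, with no such order across TRB UMIs.

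The share was higher in cells with more gene expression UMIs. It was 9.11%, 9.52%, 9.80% and 9.51% among cells with at least 2000 and under 4000 UMIs and 14.7%, 13.8%, 16.3% and 16.5% among cells with at least 8000 and under 16000. Counted as cells, the share had no common order across TRB UMIs. Runx1::Runx1t1 replicate 2 fell from 14.05% at 4 to 7 TRB UMIs to 9.67% at 16 to 31, while the other pools rose. Counting clonotypes once, the share was lowest at 4 to 7 TRB UMIs, at 10.83%, 11.72%, 10.04% and 10.81%. At 16 to 31 it was 14.01%, 12.74%, 13.39% and 14.04%, higher in 4 of 4 pools. At 1 to 3 TRB UMIs it was also above the values at 4 to 7, so it did not rise throughout. Cells with 2 TRA had median gene expression UMIs of 7071, 6737, 6857 and 6966 against 6418.5, 6309, 6368 and 6477.5 in cells with 1 TRA. The cells with 2 TRA were higher in 4 of 4 pools, by 0.11 on the log2 scale on average (two-sided exact sign-flip permutation test over pools, p = 0.13, the smallest that 4 pools allow).

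Droplets that hold 2 cells can show extra chains, and cells with other chain numbers were set beside the members. Median UMIs per cell were 6390.5 with 1 TRA and 1 TRB, 6931 with 2 TRA and 1 TRB, 8255.5 with 1 TRA and 2 TRB and 11657 with 2 TRA and 2 TRB. UMIs of both Cd4 and Cd8 genes were found in 2.74%, 4.21%, 9.03% and 17.5% of these cells in the same order. Scrublet, which scores barcodes for likeness to simulated doublets, placed 2.18%, 4.72%, 15.2% and 32.9% of them among its 5% highest scores. In each of these measures, cells with 2 TRA and 1 TRB lay nearer to cells with 1 TRA and 1 TRB than to the 1317 cells with 2 TRA and 2 TRB. How many members are doublets was not tested.

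The share of cells with 2 TRA varied between cell states. Of 22 clusters made without TCR genes, cluster 5 had 23.5%, 21.9%, 23.9% and 28.2%, higher than the rest of the pool in 4 of 4 pools (exact sign-flip permutation p = 0.13, unadjusted; no adjusted value over the clusters can be smaller). Cluster 5 carried Cd8 UMIs in 80.0% of cells and Cd4 UMIs in 32.6%, had a median of 12402.5 UMIs, held 42.1% of its cells among the highest Scrublet scores and was not named. It held 5.56% of the members and 47.8% of the cells with 2 TRA and 2 TRB. Without cluster 5 the share over the pool was 11.3%, 11.1%, 11.8% and 12.4%, the log2 ratio of gene expression UMIs was 0.09 in place of 0.11, and 50 genes in place of the 40 described below passed the test of expression. Leaving out cluster 5 was chosen after seeing the data.

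Cluster 10, led by Xcl1, Klrb1c and Cxcr6, had the reverse pattern. Its share was 6.04%, 7.49%, 5.23% and 5.61%, lower than the rest in 4 of 4 pools (exact sign-flip permutation p = 0.13). This cluster held 88.1% of the cells with a TRAV11 to TRAJ18 chain, the invariant chain of type I natural killer T cells, which recognise lipids on CD1d. Counting clonotypes once, 5.87%, 7.87%, 6.26% and 6.96% of the 1540 clonotypes with a TRAV11 to TRAJ18 chain carried a second TRA, against 13.4%, 13.5%, 12.6% and 13.5% of all others. The groups of values did not overlap and the difference had p = 0.13 in the exact sign-flip permutation test. A clonotype with 2 TRA could enter the first set by either chain, so the 2 sets were not counted alike. The mean over V families, counted by either chain, was 24.0%, 22.9%, 22.5% and 23.3%. For the TRAV11 to TRAJ18 chain counted as cells, Runx1::Runx1t1 replicate 2 stood apart at 14.7%. There 1 clone of 16 cells with TRAV7-4 to TRAJ31 and TRAV11 to TRAJ18 was found, and the other pools were at 5.76%, 6.21% and 6.67%. TRAV1 to TRAJ33, the invariant chain of mucosal-associated invariant T cells, was found in 104 cells, of which 5 carried 2 TRA.

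The comparison of the Cd8 and Cd4 lineages depended on how cells were counted. In clusters with Cd8 UMIs, cluster 5 among them, the share was 12.2%, 11.6%, 13% and 12.8%, and in clusters with Cd4 UMIs it was 12%, 11.3%, 10.9% and 14.4%. The mean difference of 0.244 points (exact sign-flip permutation p = 0.625) changed sign with several settings. With clonotypes counted once the share was 14.3%, 14.7%, 12.8% and 13.9% in Cd8 clusters and 12.8%, 12.1%, 11.4% and 12.8% in Cd4 clusters. It was then higher in Cd8 clusters in 4 of 4 pools, by 1.66 points on average (exact sign-flip permutation p = 0.13). Without cluster 5, whose removal was chosen after seeing the data, the difference was -0.372 points by cells and 0.916 points with clonotypes counted once, the latter positive in 4 of 4 pools (exact sign-flip permutation p = 0.13). In cells with 4000 to 8000 UMIs, also chosen after seeing the data, the difference by cells was -2.25 points and negative in 4 of 4 pools (exact sign-flip permutation p = 0.13). Naive-like Cd8 clusters (1, 4, 7 and 11, with Ccr7, Lef1 and other genes of resting recirculating cells) had 13%, 13.7%, 11.7% and 13.2%. Effector-like Cd8 clusters (2 and 14, with Gzmk, Gzma, Ccl5 and other cytotoxic genes) had 10.2%, 22%, 14.5% and 9.68%, and the difference of -1.19 points had an exact sign-flip permutation p = 0.75. Runx1::Runx1t1 replicate 2 was high in effector-like cells and held a clone of 125 cells with 2 TRA, 112 of them in cluster 2. With clonotypes counted once, the effector-like shares were 14.2%, 14.1%, 13.2% and 12.6%. Exhausted-like cluster 3, with Pdcd1, Lag3 and Tigit, held 823, 2245, 33 and 43 cells with 1 TRB and 1 or 2 TRA, of which 8.38%, 3.21%, 12.1% and 4.65% had 2 TRA. In Runx1::Runx1t1 replicate 2, 1084 of them belonged to the clonotype of 1118 cells with 1 TRA, and without it the share was 6.20%. With clonotypes counted once within the cluster the shares were 14.2%, 15.8%, 14.3% and 8.0%.

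The balance of the chains was even in many cells. The weaker chain, the TRA with fewer UMIs, gave a median of 39.1%, 38.5%, 40% and 40% of a cell's TRA UMIs (mean 39.4% ± 0.747, SD, n = 4 pools). Both chains had the same UMI count in 15.4%, 11.8%, 14% and 16.4% of cells, and the stronger had at least 4 times the UMIs of the weaker in 2.74% to 5.02%. The median total of TRA UMIs was 11, 12, 9 and 9 in cells with 2 TRA and 5, 6, 5 and 5 in cells with 1. The mean log2 ratio was 0.96. The cells were chosen by their number of TRA contigs, so a higher total follows from that choice and is a description only. The stronger chain alone had a median of 7, 7, 6 and 6 UMIs and the weaker 4, 4, 3 and 3, on either side of the chain of single cells. The 2 chains of a cell were ordered by their UMIs, so this placement is also a description only. TRB UMIs were alike, with medians of 15, 13, 13 and 13 against 13, 15, 12 and 12. Counts this low limit detection: the weaker chain had only 1 UMI in 5.66% to 8.73% of cells with 2 TRA, and the TRA of cells with 1 TRA had only 1 UMI in 3.49% to 7.89%.

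The J segments of the 2 chains of a cell lay close to each other. The median distance between them was 7.38, 9.0, 7.38 and 7.17 kb, against 14.2, 15.1, 14.1 and 14.5 kb over all pairs of chains from different cells with 2 TRA in the same pool. The within-cell distance was shorter in 4 of 4 pools, on average by 6.75 kb (two-sided exact sign-flip permutation p = 0.13, the smallest that 4 pools allow). Pairs at most 10 kb apart made up 67.7%, 53.6%, 62.5% and 63.4% of pairs within cells and 36.6%, 34.5%, 37.6% and 36.5% between cells. Pairs over 30 kb apart made up 1.85%, 1.5%, 3.68% and 2.65% within cells and 15% to 17.5% between. As a description over cells that share a library and, in part, a clone, Spearman's rho between the J positions of the 2 chains was 0.66, 0.67, 0.59 and 0.63 (n = 1083, 936, 951 and 1095 cells). With clonotypes counted once the rho was 0.65, 0.65, 0.58 and 0.62, and the distance 7.38, 7.09, 7.61 and 7.41 kb. The pair used the same J segment in 6.56%, 5.56%, 5.57% and 5.66% of cells, against 2.93% to 3.69% of pairs between cells.

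**Figure D2:**
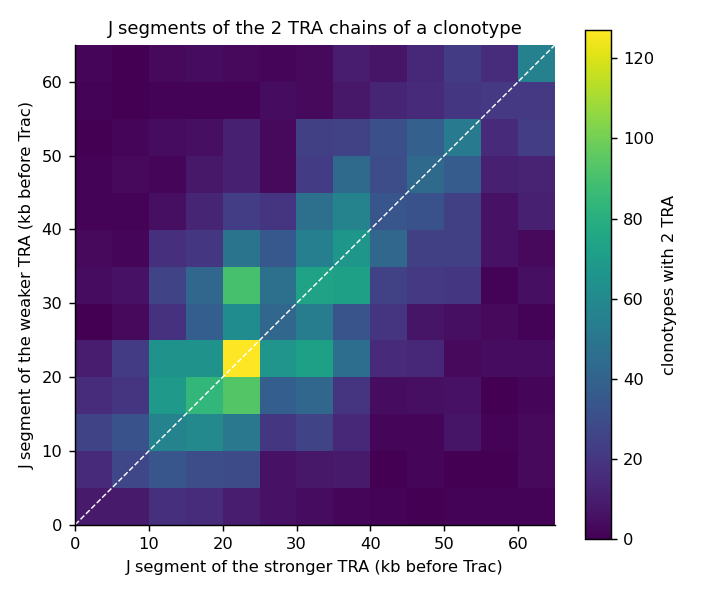
J segments of the 2 TRA chains of each clonotype with 2 TRA, as the distance in kb before Trac of the J of the stronger chain (x axis) and of the weaker chain (y axis) in squares of 5 kb; colour is the number of clonotypes. Clonotypes gather along the dashed line of equal position, and the corners where one J lies far from Trac and the other near it are almost empty.

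Short J distances were found in naive-like Cd8 and in Cd4 clusters. In naive-like Cd8 clusters the median distance within cells was 7.09, 7.07, 7.38 and 7.60 kb, and in Cd4 clusters it was 6.95, 6.78, 7.05 and 5.55 kb. Outside cluster 5 it was 7.23, 8.57, 7.16 and 7.05 kb. In the 72, 50, 54 and 50 members of cluster 5 it was 8.63, 12.1, 12.5 and 11.8 kb, beside 14.6, 15.4, 14.6 and 14.6 kb between cells. Members whose weaker chain had only 1 UMI (74, 53, 83 and 90 cells) had distances of 10.5, 9.36, 12.8 and 8.63 kb, and in control replicate 1 their rho was -0.04.

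In cells with 2 TRA and 2 TRB the J segments were farther apart. Their median distance within cells was 12.7, 14.2, 13 and 12.1 kb against 14.5, 15.1, 14.5 and 15.7 kb between cells, with a Spearman's rho of 0.10 to 0.13. The within-cell median minus the between-cell median was -6.87, -6.06, -6.71 and -7.35 kb in cells with 1 TRB and -1.83, -0.887, -1.52 and -3.57 kb in cells with 2 TRB. The first was the lower in 4 of 4 pools, with a mean difference between them of -4.80 kb ± 0.679 (SD, n = 4 pools, exact sign-flip permutation p = 0.13).

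**Figure D3:**
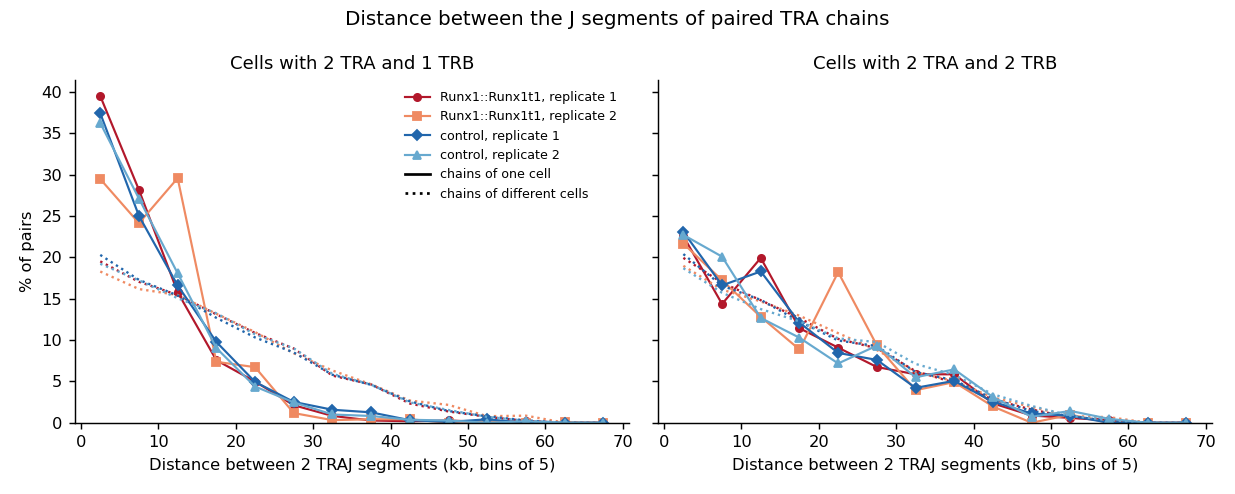
Distance between the J segments of 2 TRA chains (x axis, kb, bins of 5 kb) as percent of pairs (y axis) in cells with 2 TRA and 1 TRB (left) and 2 TRA and 2 TRB (right); solid lines are pairs of one cell, dotted lines pairs from different cells of the pool. In cells with 1 TRB the solid lines lie above the dotted ones at short distances and below them from 15 to 55 kb; the peak of Runx1::Runx1t1 replicate 2 between 10 and 15 kb holds the clone of 125 cells, whose J segments are 11.9 kb apart.

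V segments were also nearer within cells. Their median distance was 241, 267, 252 and 245 kb within cells and 325, 334, 352 and 344 kb between, with a Spearman's rho over cells of 0.17, 0.33, 0.27 and 0.22. V and J positions were tied to each other along a chain. In clonotypes with 1 TRA, V segments near the J segments were joined to J segments near the V segments, and Spearman's rho between the genome positions of V and J was -0.43, -0.44, -0.46 and -0.44. In clonotypes with 2 TRA, the V of the stronger chain and the J of the weaker one had a rho of -0.40, -0.38, -0.35 and -0.39.

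The J positions themselves differed little between cells with 2 TRA and cells with 1. The mean distance of J before Trac was 32.2, 27.4, 30.2 and 30.7 kb in cells with 2 TRA and 31.3, 34.3, 31.3 and 31.7 kb in cells with 1, a mean difference of -2.04 kb (exact sign-flip permutation p = 0.25). Runx1::Runx1t1 replicate 2 was the pool with the largest gap. Without it the difference was -0.415 kb, and with clonotypes counted once over 4 pools it was -0.549 kb (exact sign-flip permutation p = 0.25).

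Some J segments were used less or more by clonotypes with 2 TRA. Of 43 TRAJ segments, 20 (46.5%) moved one way in 4 of 4 pools when clonotypes were counted once, and of 20 TRAV families 11 (55%) did. Counted as cells, 34.9% of TRAJ segments and 50% of TRAV families did. TRAJ22 was the most used J among clonotypes with 2 TRA, at 5.79% of chains in clonotypes with 2 TRA and 6.12% with 1, followed by TRAJ23 at 4.89% and 4.31% and TRAJ31 at 4.88% and 3.77% (means over pools). TRAJ18 had the largest difference, with 3.27%, 3.63%, 3.59% and 3.69% of chains in clonotypes with 2 TRA and 8.23%, 5.69%, 8.99% and 7.98% with 1. TRAJ18 is the J of the invariant chain above. TRAJ49 was also lower in 4 of 4 pools, at 2.69% and 4.18%, while TRAJ31 and TRAJ32 (3.49% and 2.47%) were higher in 4 of 4 pools.

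Among V families, TRAV6 was the most used in clonotypes with 2 TRA, at 16% of chains in clonotypes with 2 TRA and 12.7% with 1. TRAV7 followed at 12.4% and 10.9%, TRAV12 at 12.2% and 13.3%, and TRAV13 at 11% and 8.45%. TRAV6, TRAV7 and TRAV13 were higher and TRAV12 lower with 2 TRA in 4 of 4 pools. TRAV11 was lower in 4 of 4 pools (2.57% and 6.01%), as was TRAV16 (5.15% and 6.81%). TRAV15, whose segments can also join in the delta chain locus nested within Tcra, was higher in 4 of 4 pools, at 1.69%, 1.56%, 1.85% and 1.87% with 2 TRA and 0.341%, 0.387%, 0.467% and 0.475% with 1.

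Read the other way, most clonotypes that held a TRAV15 chain held a second TRA as well. The share was 58.8%, 55.3%, 51.6% and 53.6%, beside a mean over V families of 24.0%, 22.9%, 22.5% and 23.3%, which exceeds the share over clonotypes because a clonotype with 2 TRA counts in both of its families. Of the 86 V segments with at least 20 clonotypes, 6 were over 50%, 1 lay between 40% and 50%, and the median was 24.1%. The 6 were singled out after their values were seen. They were TRAV13D-3 (25 of 33 clonotypes, chr14:53032848-53033419), TRAV13N-3 (38 of 57, chr14:53337122-53337639), TRAV9D-4 (18 of 27, chr14:52983201-52983860), TRAV15-1-DV6-1 (38 of 53, chr14:53559632-53560247), TRAV15-2-DV6-2 (21 of 31, chr14:53649404-53649994) and TRAV15D-1-DV6D-1 (43 of 66, chr14:52863299-52863936). Several of the 6 are copies of each other, such as TRAV13D-3 and TRAV13N-3, while other copies had lower shares, with TRAV15D-2-DV6D-2 at 20 of 72 clonotypes and TRAV9-4 at 113 of 539. The chain from these 6 segments was the weaker of the pair in 98 clonotypes and the stronger in 83, and its median was 5 UMIs with 2 TRA and 4 with 1. TRAV15-1-DV6-1 was the weaker chain in 84.2% of its pairs and TRAV13D-3 in 32%.

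**Figure D4:**
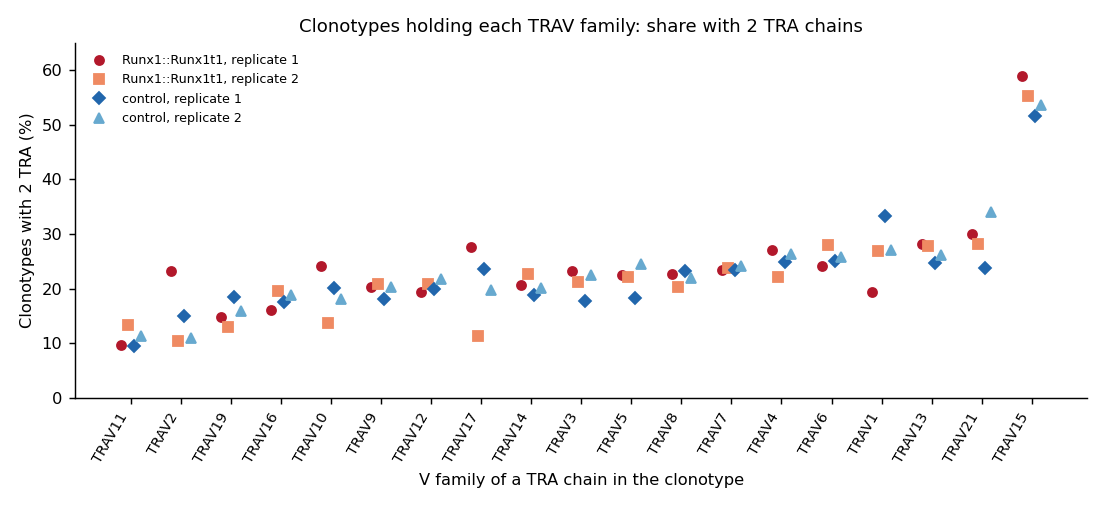
Clonotypes that hold a chain of each TRAV family (x axis, ordered by mean): percent of them with 2 TRA chains (y axis), 1 point per pool. TRAV15 lies over 50% in all 4 pools, and TRAV11 lies between 9.49% and 13.4%.

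Families also differed in which chain was the stronger. TRAV10 chains were the stronger in 27.3% of the 143 pairs with another family and TRAV16 chains in 30.4% of 283, low in each of the 4 pools. TRAV4 chains were the stronger in 61.7% of 303 pairs and TRAV14 chains in 57.8% of 419, above 50% in each pool. In clonotypes with 1 TRA the mean was 3.87 UMIs per cell for TRAV16, 5.02 for TRAV10, 6.38 for TRAV14 and 7.06 for TRAV4. The CDR3 of the stronger chain had a mean of 40.8 to 41.2 bases and that of the weaker 41.3 to 41.5.

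Clones, cells that share a TRB and both TRA sequences, showed how often both chains of a pair were seen again. In 128 clones both chains were seen together in at least 2 cells. Of the 827 cells with the TRB and at least 1 of the TRA of such a clone, both TRA were found in 684, or 88.4%, 78.6%, 86.6% and 81.2% by pool (mean 83.7% ± 4.59, SD, n = 4). Leaving out the 2 cells by which each clone was recognised, the share was 75% of 571 cells. Of the 143 cells with 1 chain, 96 lacked the clone's weaker chain. Beside the chain they shared with the clone, 0 of the 143 carried another TRA, and 7 further cells had the TRB of such a clone and neither of its TRA. The assembly software can use clone information in its filters, and its part in this count of 0 was not tested.

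The largest clone with 2 TRA of each pool is shown by the CDR3 nucleotide sequences of its 3 chains, in lower case with the longest stretch at the 3′ end found in the named GRCm38 J segment in capitals. They are shown since the 2 TRA of a clone are separate rearrangements, which in each of these clones end in different J segments. The lower case part holds V bases, bases added at the joint and, in TRB, those of the D segment.

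Runx1::Runx1t1 replicate 2, 125 cells, TRBV10 to TRBJ2-5: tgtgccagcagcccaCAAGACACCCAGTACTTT
Runx1::Runx1t1 replicate 2, stronger TRA, TRAV14D-1 to TRAJ15: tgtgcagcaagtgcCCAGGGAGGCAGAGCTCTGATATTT
Runx1::Runx1t1 replicate 2, weaker TRA, TRAV6N-6 to TRAJ4: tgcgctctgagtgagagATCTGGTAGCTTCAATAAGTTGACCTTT
Runx1::Runx1t1 replicate 1, 28 cells, TRBV3 to TRBJ2-1: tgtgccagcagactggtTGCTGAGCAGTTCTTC
Runx1::Runx1t1 replicate 1, stronger TRA, TRAV4-4-DV10 to TRAJ44: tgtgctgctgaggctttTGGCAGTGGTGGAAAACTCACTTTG
Runx1::Runx1t1 replicate 1, weaker TRA, TRAV7D-2 to TRAJ48: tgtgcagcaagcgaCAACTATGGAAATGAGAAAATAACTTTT
control replicate 2, 20 cells, TRBV12-2+TRBV13-2 to TRBJ2-7: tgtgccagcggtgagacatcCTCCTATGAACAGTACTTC
control replicate 2, stronger TRA, TRAV10N to TRAJ12: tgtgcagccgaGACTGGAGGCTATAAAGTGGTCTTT
control replicate 2, weaker TRA, TRAV6N-6 to TRAJ7: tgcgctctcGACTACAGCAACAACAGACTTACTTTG
control replicate 1, 17 cells, TRBV17 to TRBJ2-7: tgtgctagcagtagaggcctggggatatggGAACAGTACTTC
control replicate 1, stronger TRA, TRAV14N-3 to TRAJ21: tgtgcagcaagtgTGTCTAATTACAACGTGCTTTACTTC
control replicate 1, weaker TRA, TRAV5-1 to TRAJ23: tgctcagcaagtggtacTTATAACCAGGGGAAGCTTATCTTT

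The J segments of these pairs lay 11.9 kb (TRAJ15 at chr14:54204422-54204481, TRAJ4 at chr14:54216291-54216353), 3.88 kb (TRAJ44 at chr14:54173690-54173750, TRAJ48 at chr14:54169808-54169868), 4.92 kb (TRAJ12 at chr14:54206553-54206610, TRAJ7 at chr14:54211470-54211528) and 2.71 kb apart (TRAJ21 at chr14:54198790-54198846, TRAJ23 at chr14:54196081-54196140). Over the 128 clones the median was 6.32 kb, and 88 pairs lay under 10 kb apart. In 9 clones both chains used the same J. The largest of these, chosen for that after the data were seen, held 14 cells of Runx1::Runx1t1 replicate 1 with TRAJ57 (chr14:54158505-54158569), and the shared 3′ end of its chains is seen in their capitals.

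Runx1::Runx1t1 replicate 1, stronger TRA, TRAV21-DV12 to TRAJ57: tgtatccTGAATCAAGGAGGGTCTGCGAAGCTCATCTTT
Runx1::Runx1t1 replicate 1, weaker TRA, TRAV4-3 to TRAJ57: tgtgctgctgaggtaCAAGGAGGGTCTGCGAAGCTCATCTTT

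Within a clone the balance of the 2 chains varied from cell to cell. The 26 clones with at least 5 cells held 439 cells in all. Among the cells of a clone, the log2 ratio of its stronger chain to its weaker one had a median SD of 0.80. The means of the clones had an SD of 0.35. Means over at least 5 cells spread less than single cells, so the 2 SDs cannot be compared. The clone of 125 cells had 912 UMIs of TRAV14D-1 to TRAJ15 and 535 of TRAV6N-6 to TRAJ4, and the first was higher in 99 cells and equal in 8. The clone of 28 cells had 198 and 197 UMIs of its chains, and the nominally stronger was higher in 10 cells and equal in 8. UMI counts of this size have a counting error of their own, whose part in the spread among cells was not tested.

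**Figure D5:**
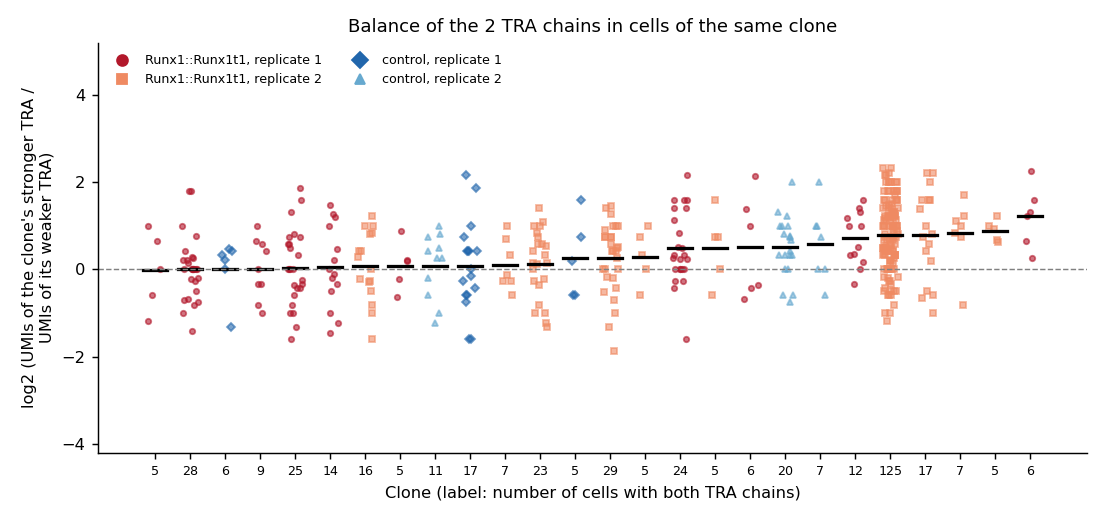
Log2 ratio of the UMIs of the clone's stronger TRA to those of its weaker TRA (y axis) in each cell with both, for the 26 clones with at least 5 such cells (x axis, labelled with the number of cells); horizontal lines are clone means; the stronger chain is the one with more UMIs summed over the clone. Cells spread on both sides of 0 in most clones, and the highest clone mean is 1.22.

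Second chains were also sought in large clones with 1 TRA. Of 48 clonotypes with at least 20 cells with 1 TRA, 1 had a second TRA in 2 or more cells. In the other 47, with 3352 cells with 1 TRB, 0 cells carried a second TRA (3 counts of the total, which a count of 0 allows, are 0.0895%). The largest of the 47, TRBV1 with TRAV6-6 to TRAJ48 in Runx1::Runx1t1 replicate 2, had 0 of 1118 cells. By the same rule this allows a share of up to 0.268%. Outside the 3352, cells with 1 TRA and 2 TRB matched the 47 clonotypes 156 times. Of these matches, 155 were in Runx1::Runx1t1 replicate 2, and 85 were in 1 clonotype. A cell could match 2 clonotypes through its 2 TRB. Both limits, 0.0895% and 0.268%, cover counting error only. Cells with 2 TRA and 2 TRB that held the TRB and TRA of 1 of the 47 clonotypes also numbered 0, out of 1317 cells with 2 TRA and 2 TRB. The filters of the assembly software named above could also act on these counts of 0, and this was not tested.

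Gene expression was compared between cells with 2 TRA and 1 TRA on UMI counts summed per pool, and the fit had a term for each pool. Of 12448 genes tested, 40 passed an adjusted p of 0.05 (0.321%; edgeR quasi-likelihood test with Benjamini-Hochberg adjustment), 20 higher (0.161%) and 20 lower (0.161%). The genes higher in cells with 2 TRA were mostly the receptor itself, which the choice of cells fixes. They held 18 of 75 TRA V segments and Trac, at 170, 217, 195 and 167 CPM with 2 TRA and 143, 193, 155 and 143 CPM with 1 (log2 fold change 0.24 ± 0.03 SE), and the other was the histone gene Hist1h2ae (0.60, higher in 4 of 4 pools), named after its value was seen. With each cell thinned to 2000 UMIs, Hist1h2ae was at 0.27 (edgeR adjusted p = 0.752). Trav13d-3 (2.57), Trav15-2-dv6-2 (1.85), Trav15-1-dv6-1 (1.72), Trav6n-6 (1.64), Trav7-5 (1.62), Trav4-4-dv10 (1.41), B230359F08Rik (a V segment of this locus, 1.36), Trav21-dv12 (1.19), Trav8-1 (1.15) and Trav4-3 (1.12) had the largest log2 rises. These counts come from the same cDNA as the contigs that chose the cells, so they are a description.

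Several of the genes lower in cells with 2 TRA lost their call when cluster 10 was left out. Zbtb16, the transcription factor PLZF that directs natural killer T cell development, was at 2.55, 2.27, 3.88 and 3.55 CPM with 2 TRA and 8.66, 4.97, 9.08 and 7.81 CPM with 1. It was lower in 4 of 4 pools, by -1.32 ± 0.15 (SE) on the log2 scale (edgeR quasi-likelihood test, adjusted p = 0.0046). Cxcr6, a chemokine receptor of tissue-resident and natural killer T cells, fell by 0.76, Id2 (a regulator of innate and effector lymphocytes) by 0.23 and Klra9, an NK cell receptor gene, by 0.77 on the log2 scale, each lower in 4 of 4 pools. Without cluster 10, which holds most TRAV11 to TRAJ18 cells, Zbtb16 was at -1.13 (edgeR adjusted p = 0.245), Cxcr6 at -0.63 (adjusted p = 0.402) Klra9 at -0.49 (adjusted p = 0.670) and Id2 at -0.10 (adjusted p = 0.794), and 18 genes in place of 40 passed.

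Other lowered genes had their counts mainly in 1 group or 1 pool. Coch was at 6.68 and 5.73 CPM in cells with 2 TRA and 20.1 and 28.6 CPM in cells with 1 in the Runx1::Runx1t1 pools and at most 0.312 CPM in the control pools. Its log2 fold change of -1.96 became -0.09 with each clonotype counted once (edgeR adjusted p = 0.989). Lag3, an inhibitory receptor, was at 37.6, 66.0, 15.2 and 4.82 CPM with 2 TRA and 78.1, 183, 13.7 and 6.78 CPM with 1, so that control replicate 1 went the other way. Its log2 fold change of -1.04 turned to 0.28 with clonotypes counted once (edgeR adjusted p = 0.230). Glp1r (-2.85) was at 18.5 CPM in cells with 1 TRA of Runx1::Runx1t1 replicate 2 and at most 2.27 CPM elsewhere. S100a8 (-2.19), a neutrophil gene, was at 89.3 CPM in cells with 1 TRA and 13.1 CPM in cells with 2 TRA of control replicate 1, the pool where the myeloid markers also differed most, and without that pool its log2 fold change was -0.66 (edgeR adjusted p = 0.586). The neutrophil genes Camp and Ngp, named after their values were seen, were lower in 2 of 4 pools. The other named falls were Trav13-3 (a V pseudogene, -1.96), Tmem273 (-1.48), Gm36723 (-1.07) and Anxa1 (-0.72), each lower in 4 of 4 pools. Without cluster 10, Tmem273 was at -1.35 (edgeR adjusted p = 0.758) and Anxa1 at -0.29 (adjusted p = 0.805). With clonotypes counted once, Tmem273 was at -0.94 (edgeR adjusted p = 0.0133), Gm36723 at -0.57 (adjusted p = 0.175) and Trav13-3 at -1.46 (adjusted p = 0.151).

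Pathway genes mostly did not pass, and neither did most genes, since 0.321% of the 12448 tested passed in either direction. At that share short lists would mostly hold no call, so the counts below are a description. Of 8 genes of the receptor complex 1 was higher (Trac), and the CD3 subunit genes and Cd247 did not pass, with Cd3e at -0.09 and Cd247 at 0.05 on the log2 scale. Of 16 genes of receptor signalling 0 passed, among them Cd5 (0.06) and Nr4a1 (0.01), whose levels are known to follow the strength of receptor signals, and the list's median was 0.03 beside -0.00 over all genes tested. Of the 5 tested genes of recombination and immature cells 0 passed, while Rag1, Rag2 and Ptcra were too low to be tested. Of 8 naive genes 0 passed (median 0.13), of 9 cytotoxic genes 0 (median -0.32, Gzmb at -0.55 with adjusted p = 0.0571) and of 6 regulatory genes 0 (median 0.00). Of 6 inhibitory genes 1 was lower (Lag3), with a median of -0.59, and of the 10 tested markers of other cell types 1 was lower (S100a8). These medians are by cells, so large clones weigh in them, and Lag3 was at 0.28 with clonotypes counted once. Within naive-like Cd8 clusters the median was -0.02 over the 4 inhibitory genes tested and 0.04 over the 7 cytotoxic genes tested.

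Within naive-like Cd8 clusters, where clones are small, 29 of 10591 genes passed (0.274%), 27 higher (0.255%) and 2 lower (0.0189%). They were 25 of 69 TRA V segments, Trac (log2 fold change 0.36), Trbv13-3 and Trbv12-2, both lower, and Ly6c2 alone outside the receptor loci. Ly6c2, a surface antigen of memory and recently activated Cd8 cells, was at 1554, 2206, 1369 and 1520 CPM with 2 TRA and 1568, 2060, 1064 and 1429 CPM with 1, a log2 fold change of 0.13 ± 0.03 (SE) that was positive in 3 of 4 pools. Without control replicate 1 it was 0.06 (edgeR adjusted p = 0.999). It is named after its value was seen. None of the cytotoxic, inhibitory, regulatory or signalling genes tested in these clusters passed; 519 of the 10591 genes had an unadjusted p under 0.05, and DESeq2 called 9 genes.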

How the data were processed

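Single-cell 5′ gene expression and TCR libraries were made from T cells of 4 pools of 2 mice. According to the submitters' processing notes the authors used Cell Ranger 6.1.2 and GRCm38. The deposited values were UMI counts per gene and barcode and UMI counts per TCR contig, and every deposited contig was marked productive and full length. Chains were joined to cells by barcode within a pool. Cells were clustered without TCR genes (scanpy 1.11.5, leidenalg 0.10.2, 4000 variable genes, 50 components, resolution 2), and clusters were named from marker lists. No cells were removed as doublets. Removing the 5% highest Scrublet scores was an alternative. Gene and segment coordinates are those of the GRCm38 annotation.

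The pool was the replicate. Groups were compared by two-sided exact permutation tests and contrasts within pools by exact sign-flip permutation tests. Counts were summed per pool and class and tested with edgeR 4.0.16 (quasi-likelihood, TMM, pool as block, low counts filtered), with DESeq2 1.42.0 as an alternative. The edgeR test was first run on simulated data with 200 changed genes. Over all cells it recovered 88% of log2 changes of 1 and 59% of log2 changes of 0.5, and 9.26% of its calls were false. For naive-like Cd8 clusters these values were 84%, 59% and 3.38%. Clonotypes counted once, UMI minimums, thinning and left-out pools were further alternatives. The text names the 10 largest rises and falls with an adjusted p under 0.05 and the same sign in 4 of 4 pools, the most used and most different segments, and genes of listed pathways. Members and lists were chosen with earlier results of these data known. Single values of some listed genes are not reported here.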

Additional observations from a re-analysis of the deposited data

Results flagged for a closer look

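In 2 clusters the share of cells with 2 TRA, less that of the rest of the pool, was negative in both Runx1::Runx1t1 pools and positive in both control pools. In regulatory-like cluster 6 the shares were 11.6%, 10.9%, 12.7% and 13.5% against 11.7%, 11.4%, 12.1% and 12.7% in the rest, and the groups differed by -1.03 percentage points. In naive-like cluster 16, which had Myb and Trdc among its leading genes, the shares were 9.09%, 10.7%, 16.1% and 16.5% against 11.7%, 11.4%, 12% and 12.7%, and the groups differed by -5.64 points. Cluster 16 held 244, 235, 383 and 237 barcodes, counted with any number of chains. The difference between groups was not tested in either cluster.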

How the results depend on the processing

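The J distance within cells stayed shorter than between cells under each alternative run, by -6.24 to -7.11 kb. The mean share of cells with 2 TRA was 10.5% with at least 3 UMIs per contig, 12.9% with clonotypes counted once and, in an alternative chosen after seeing the data, 11% in cells with 4000 to 8000 UMIs. With at least 3 UMIs per contig the weaker chain gave 40.2% of TRA UMIs and sister cells carried both chains in 75.1%. The group difference turned to 0.491 points with clonotypes counted once (0.403 also without cluster 5, chosen after seeing the data). The Cd8 minus Cd4 difference turned to -0.0592 points without high Scrublet scores and to -0.179 at cluster resolution 1, and with clonotypes counted once it was 1.66 and positive in 4 of 4 pools. In alternatives chosen after seeing the data it was -0.372 without cluster 5 (0.916 with clonotypes also counted once), -0.0191 in cells with 5 to 20 TRB UMIs and -2.25, negative in 4 of 4 pools, in cells with 4000 to 8000 UMIs, and leaving out 1 pool gave -0.368 (without control replicate 1) to 0.876. The naive-like minus effector-like difference turned to 0.650 at cluster resolution 1 and, chosen after seeing the data, to 0.900 without cells carrying the TRB of the largest clone with 1 TRA or of the largest with 2, and leaving out 1 pool gave -2.75 to 1.16 (without Runx1::Runx1t1 replicate 2).

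Of all cells, 232 genes passed with no filter on low counts, 2 with no pool block, 99 with clonotypes counted once and, chosen after seeing the data, 18 without cluster 10. With each cell thinned to 2000 UMIs 41 passed, sharing 23 with the 40. Among the genes named above, Zbtb16 was then at -1.27 (edgeR adjusted p = 0.0594) and Klra9 at -0.84 (adjusted p = 0.131). Anxa1 was at -0.62 (edgeR adjusted p = 0.216) and Trav13d-3 at 2.22 (adjusted p = 0.110). Leaving out 1 pool gave 14 (without Runx1::Runx1t1 replicate 1) to 69 (without replicate 2 of that group). DESeq2 called 48, sharing 1 with the 40, but gave no adjusted p for 11825 of the 12448 genes, most of the 40 among them. In naive-like Cd8 clusters 9 genes passed with DESeq2, 2 with no pool block, 4 with cells thinned to 2000 UMIs, and 16 to 23 with 1 pool left out. The causes were not tested. With the replicate number as a block the group difference in share was -0.902 points (exact permutation p = 0.5), and with only 2 numbers the pairing could not be judged. Medians of 3 to 7 UMIs per TRA chain limit the detection of second chains, and 2 pools a group limit every group comparison.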
